A study of Mus musculus with 15 samples.

Results

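The genes described here build and drive the microtubule motors of cilia and of the cytoplasm: dynein chains and their assembly factors, dynactin subunits, intraflagellar transport (IFT) proteins, BBSome subunits and tektins. Members were all genes whose symbol in the platform's probe table begins with Dnaaf, Dnah, Dnai, Dnal, Dync, Dynl, Dctn, Bbs or Tekt, or with Ift and a digit. This gave 49 genes with 76 probes, of 9834 named genes and 20205 probes on the arrays. Each of 15 two-colour cDNA arrays, which are glass slides spotted with gene fragments, compared RNA of a mouse lymphoid ES cell line after treatment with RNA of that line untreated. The treated RNA carried the dye Cy5 on arrays 1 to 8 and Cy3 on arrays 9 to 15, the dye swaps; arrays 1 to 8 are called the forward arrays. The agent, dose, time, strain and genotype are unknown from the labels, as is how many cultures the arrays stand for. The extraction and labelling text speaks of animal organs and of a pool of control animals, which is not what the channel names say. Spread between arrays, which is all that the p-values can measure, may thus be technical.

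Dyneins are motors that walk along microtubules. Axonemal dyneins bend motile cilia and flagella and are put together in the cytoplasm by assembly factors before they enter the cilium, whereas cytoplasmic dynein, with its cofactor dynactin, carries cargo towards the cell centre and positions the spindle. IFT trains carry building material along the cilium, the BBSome moves membrane proteins in and out of it, and tektins are filaments of the axoneme. Pluripotent and lymphoid cells use cytoplasmic dynein and dynactin, while motile cilia belong to specialised cells such as those of the airway, oviduct and sperm.

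Every value is a log2 ratio of the 2 channels as deposited. Above 0 likely means more RNA in the treated cells, a reading taken from the sign of the placeholders for an empty channel and not from the labels. Measured values per array numbered 19213 to 19973. Scanner intensities were not analysed here, so a ratio does not show whether a gene was expressed, and a level cannot be set against that of another gene. Arrays resembled each other little: the median Pearson correlation over probes was 0.091 between forward arrays, 0.034 between dye swaps and -0.058 across orientations. Arrays 7, 8 and 15 stood apart with 17 to 39 placeholders each, against 130 to 239 on the others, and had a column SD of 0.45 to 0.82. Of the others, arrays 5, 6, 11 and 13 had the narrowest spread (column SD 0.35 to 0.43) and the remaining 8 had an SD of 0.54 to 0.68. Both dyes occur in each of these 3 sets, with only 2 forward arrays and 1 dye swap in the first, and values within them are given below.

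Some of the promoters of these genes hold a letter pattern that the symbols did not use, and it is shown first because it occurs next to the start of Dnaaf2, the member that passed the test for treatment. Many cilia genes are known to be switched on by RFX factors, which bind the X-box, an inverted repeat whose arm reads GTTGCC. RefSeq promoter windows (GRCm38.p6; 250 bases before to 50 after the start) were found for 39 of the 49 genes. The arm, searched as GTTGCC on both strands (GGCAAC on the printed strand when reversed), was present in 17 of 44 member windows (38.6%) and in 12.5% of all 32851 windows. Counted by gene, that is 15 of 39 genes (38.5%) and 14.1% of all 27025 genes. The whole repeat, the arm followed by any 2 bases and its reverse complement, was in 0 of the 44 windows and in 0.0944% of all windows. Only this exact form was searched, and looser or differently spaced repeats were not counted. A match is a description of letters and not a binding site. Genes with the arm lay on both sides of 0 in the treatment estimates described below, from -0.18 for Ift57 to 0.52 for Dnaaf2. Whether the arm goes with these estimates was not tested. The 250 bases before the start of Dnaaf2 (chr12:69198430-69198679, minus strand) are printed 5′ to 3′ with the arm in capitals, followed by a shorter window of Dynlrb2 (chr8:116504952-116504981, plus strand), which is also described by its values below.
Dnaaf2: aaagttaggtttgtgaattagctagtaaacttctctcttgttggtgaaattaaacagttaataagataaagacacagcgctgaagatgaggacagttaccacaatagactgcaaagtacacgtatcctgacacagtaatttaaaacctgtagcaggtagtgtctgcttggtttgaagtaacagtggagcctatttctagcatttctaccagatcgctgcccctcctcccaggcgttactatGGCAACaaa
Dynlrb2: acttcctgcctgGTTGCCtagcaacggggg
The arm begins 9 bases before the start in Dnaaf2 and 51 in Dynlrb2.

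Dnaaf2, which helps to fold and assemble axonemal dyneins, was the only member of the 49 to pass limma's test for treatment, and it lay above 0. All 49 genes had enough values to be tested. Over the 9720 genes tested, 4 (0.0412%) passed, 2 of them above 0 (0.0206%). Of the members, 25 lay above 0 and 24 below, and the median treatment estimate was 0.002 (log2, the mean of both dye orientations). Over all genes tested, 52.0% were above 0 and the median was 0.005. At an unadjusted p under 0.05, 4 members were found (8.16%), where the share over all genes was 7.02%. All 4 (Dnaaf1, Dnaaf2, Dnah3 and Dync1h1) were above 0, a direction with a share of 3.94% over all genes. The members as a whole thus lay close to the background. Their median standard error was 0.094, with 0.045 as the lowest and 0.44 as the highest.

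**Figure D1:**
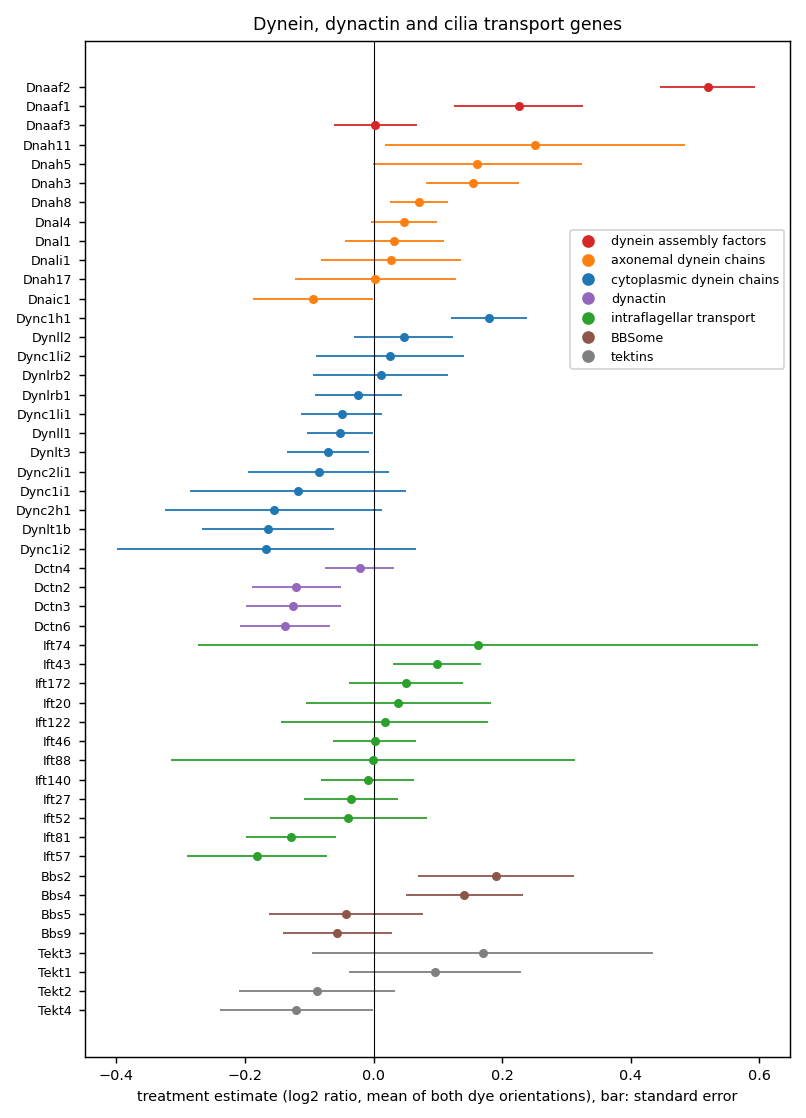
Treatment estimate (x axis, log2 ratio, mean of both dye orientations; bars: standard error, n = 15 arrays except for 9 genes with 8 to 14) of the 49 genes, coloured by family. Dnaaf2 at 0.52 stands apart, and the other genes lie between -0.18 and 0.25.

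**Figure D2:**
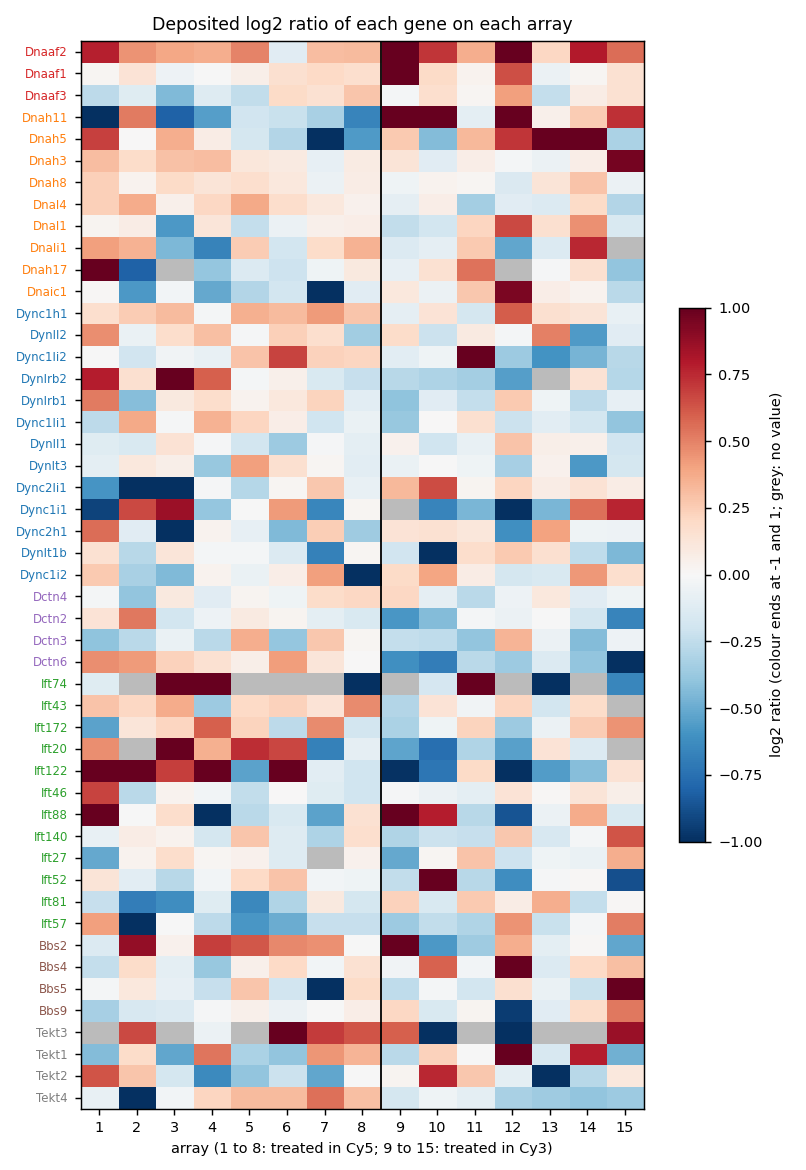
Deposited log2 ratio of each gene (rows, in the order of families and estimates) on each array (columns; the line separates treated in Cy5 from treated in Cy3), with grey for no value and colour ending at -1 and 1. The row of Dnaaf2 is above 0 on 14 of 15 arrays, and Dctn6 changes sign between the orientations.

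The assembly factors come first. Dnaaf2 has 3 probes, which carry the identifiers 601, 7404 and 5722 on the platform. Probe 601 ranged from 0.37 to 1.41 on the 8 forward arrays (median 0.91) and from 0.45 to 1.57 on the 7 dye swaps (median 1.26). It was above 0 on all 15 arrays and the ranges of the orientations overlapped. Its treatment estimate was 1.05 ± 0.10 (SE, n = 15 arrays; adjusted p = 0.000239 over 19863 probes in limma), a ratio of 2.07. Of the 75 fitted probes of the members, 2 passed for treatment, both of Dnaaf2 and above 0, where 0.0503% of all probes passed and 0.0252% did so above 0. At an unadjusted p under 0.05 there were 6 above 0 (3.98% of all probes) and 3 below (2.89%), and 40 of the 75 lay above 0 (52.4% of all probes). Probe 7404 ranged from 0.13 to 0.88 in the first orientation (median 0.39) and from 0.19 to 1.40 in the dye swaps (median 0.57), again above 0 on all 15 arrays. It was at 0.53 ± 0.09 (adjusted p = 0.0299 in limma), a call that was lost in 11 of the 15 fits with 1 array left out (adjusted p from 0.0516 to 0.0938).

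Probe 5722 did not follow. It ranged from -0.85 to 0.17 on the forward arrays (median -0.14) and from -0.24 to 0.94 in the dye swaps (median 0.09). It was above 0 on 6 of 15 arrays, at -0.02 ± 0.09 (adjusted p = 0.970 in limma). The order of the probes was the same on most arrays: probe 601 was the highest on all but array 9, where probe 7404 was at 1.40 and probe 601 at 1.22. The spread between probes of Dnaaf2, 1.07 from the lowest to the highest estimate, was the widest of the 19 members with several fitted probes, for which the median was 0.09. Which transcripts the clones stand for was not analysed here. In the RefSeq table a long non-coding RNA, 9330151L19Rik, overlaps Dnaaf2, and the strand of the clones was not analysed here.

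**Figure D3:**
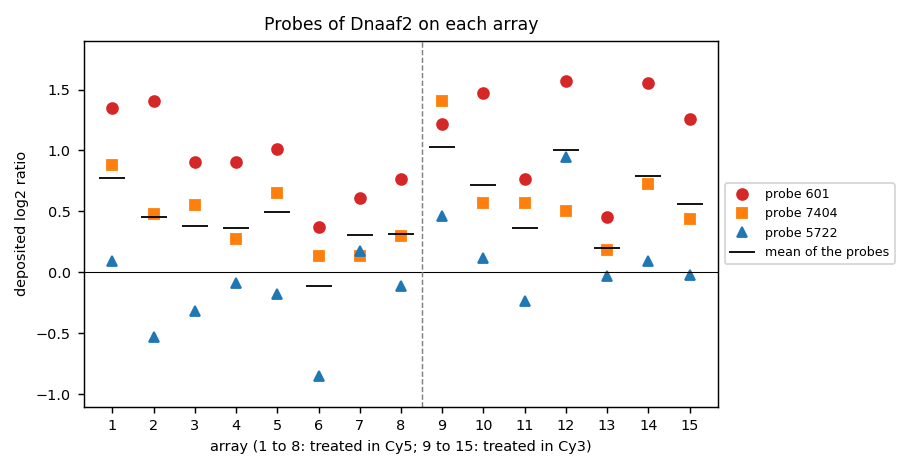
Deposited log2 ratio (y axis) of the 3 probes of Dnaaf2 on each array (x axis), with the mean of the probes as a bar and a dashed line between the dye orientations. Probes 601 and 7404 are above 0 on all 15 arrays, and probe 5722 lies on both sides of 0.

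Averaged over its probes, Dnaaf2 lay between -0.11 and 0.77 on the forward arrays (median 0.37) and between 0.20 and 1.03 on the dye swaps (median 0.72). Only array 6 was below 0. The treatment estimate was 0.52 ± 0.07 (SE, n = 15; adjusted p = 0.0149 in limma), rank 2 of 9720 genes by p. Its dye effect, 0.5 times the difference between treated in Cy5 and treated in Cy3, was -0.15 ± 0.07 which was not a call (limma, adjusted p = 0.294). Within the array sets, the gene was at 0.435 in arrays 7, 8 and 15, at 0.24 in the narrow set and at 0.69 in the remaining 8. Probe 601 was at 0.97, 0.65 and 1.30 in these sets, probe 7404 at 0.33, 0.39 and 0.67, and probe 5722 at 0.0040, -0.32 and 0.097. The setting that keeps the most measured probe could not choose between the 3 probes, since each had values on all 15 arrays. It took the lowest identifier, probe 601, so its value of 1.05 is that of probe 601 alone. The call of the gene was lost without array 10 (0.52, adjusted p = 0.0527 in limma) or without arrays 7, 8 and 15 (0.54, adjusted p = 0.0750). It was also lost on the forward arrays alone and on the dye swaps alone, and with the dye swaps turned the estimate was -0.15 (limma, adjusted p = 0.294). Of 45 values of its probes, 4 were at dim spots, all of them at probe 7404, which did not pass without them (0.49 ± 0.10, adjusted p = 0.209 in limma).

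Dnaaf1, a leucine-rich repeat assembly factor, was above 0 on 12 of 15 arrays. It ranged from -0.052 to 0.20 on the forward arrays (median 0.099) and from -0.055 to 1.57 in the dye swaps (median 0.15). Arrays 9 and 12 were high, at 1.57 and 0.65, while every other array lay between -0.055 and 0.20. The estimate of 0.23 ± 0.10 did not pass (adjusted p = 0.688 in limma), and it was 0.12 without array 9. Its 2 probes had estimates of 0.22 and 0.23 but peaked on different arrays: probe 13303 on array 12 at 1.76 and probe 13851 on array 9 at 2.77. Dnaaf3, a further assembly factor, was at 0.0029 ± 0.065, from -0.44 to 0.41 over the arrays.

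Assembly of dynein arms also needs the HSP90 chaperone with its R2TP partners. A list of 21 symbols held these chaperones and also other genes of dynein arms, such as Ccdc103 and Ccdc114. Of the list, 10 genes were tested, 6 of them above 0 (median 0.028), and none passed in limma or reached an unadjusted p under 0.05. The highest estimate, 0.30, was that of Ccdc114. Rpap3, the scaffold of the R2TP complex, was at 0.18 ± 0.10 and Ruvbl1, its ATPase, at -0.17 ± 0.10 (adjusted p = 0.753 for each in limma).

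Of the 9 axonemal dynein chains, 8 lay above 0 and Dnaic1 below (median 0.047); none passed limma's test and 1, Dnah3, had an unadjusted p under 0.05. The 5 heavy chains, which hold the motor domain, all lay above 0, from 0.0023 for Dnah17 to 0.25 for Dnah11, with a median of 0.15. Dnah3, an inner arm heavy chain, was above 0 on 11 of 15 arrays, from -0.084 to 0.31 on the forward arrays (median 0.15) and from -0.11 to 0.96 in the dye swaps (median 0.064). Its estimate was 0.15 ± 0.07 (adjusted p = 0.710 in limma). Array 15 was the highest at 0.96, and without it the estimate was 0.087. In arrays 7, 8 and 15 it was at 0.48, against 0.053 and 0.145 in the narrow and the remaining set.

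Dnah11, an outer arm heavy chain, went in opposite directions in the 2 orientations. It was from -2.07 to 0.52 on the forward arrays (median -0.44, 1 of 8 arrays above 0) and from -0.10 to 3.19 in the dye swaps (median 0.73, 6 of 7 above 0). The ranges overlapped. Its treatment estimate was 0.25 ± 0.23 and its dye effect -0.79 ± 0.23, and neither passed (adjusted p = 0.831 and 0.0777 in limma). Without array 9, which held the value of 3.19, the treatment estimate was 0.072. Dnah5, another outer arm heavy chain, was at 0.16 ± 0.16 and Dnah8, measured by 4 probes, at 0.071 ± 0.045. The probes of Dnah8 lay between -0.0090 and 0.24.

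The smaller axonemal chains lay between -0.094 and 0.047. Dnaic1, an intermediate chain of the outer arm, was at -0.094 ± 0.094, from -1.07 to 0.015 on the forward arrays (median -0.24) and from -0.27 to 0.94 in the dye swaps (median 0.066). Dnal4, a light chain, was at 0.047 ± 0.052 and above 0 on all 8 arrays of the first orientation (0.044 to 0.38, median 0.19), but only on 2 of 7 dye swaps (-0.34 to 0.19, median -0.11). Dnal1 was at 0.032 ± 0.077. Dnali1, whose 2 probes lay closest together of all members at 0.025 and 0.030, was at 0.027 ± 0.11 on 14 arrays.

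Cytoplasmic dynein chains showed no call for treatment. Of 13 genes, 9 lay below 0 and 4 above (median -0.052), and 1 had an unadjusted p under 0.05. Dync1h1, the heavy chain that forms the motor of cytoplasmic dynein 1, had the smallest p of them. It ranged from -0.021 to 0.43 on the forward arrays (median 0.30, 7 of 8 arrays above 0) and from -0.18 to 0.60 in the dye swaps (median 0.13, 4 of 7 above 0). The orientations overlapped, and the estimate of 0.18 ± 0.06 did not pass (adjusted p = 0.538 in limma). Its 2 probes shared the sign at 0.22 ± 0.07 and 0.14 ± 0.07, and the array sets gave 0.14, 0.16 and 0.19. Leaving out single arrays kept it between 0.14 and 0.20.

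The remaining subunits of dynein 1 lay on both sides of 0. The intermediate chains, which bind dynactin, were at -0.12 ± 0.17 (Dync1i1, 14 arrays) and -0.17 ± 0.23 (Dync1i2). Dync1i2 held a single value of -3.66, on array 8, and its median was -0.016 on the forward arrays and 0.17 in the dye swaps. The light intermediate chains were at -0.049 ± 0.063 (Dync1li1) and 0.026 ± 0.11 (Dync1li2). Both chains of dynein 2, the motor of return transport in the cilium, were below 0: Dync2h1 at -0.16 ± 0.17 and Dync2li1 at -0.085 ± 0.11. Dync2h1 held a value of -2.44 on array 3, and its median was -0.097 on the forward arrays and 0.115 in the dye swaps. Probe 1066 of Dync2li1 was at the same value, -2.444, on array 3. Each of these probes had 2 dim values among 15, and which arrays held them is not given here. Dync2li1 was above 0 on all 7 dye swaps (0.026 to 0.65, median 0.14) and on 2 of 8 arrays of the other orientation (-1.39 to 0.27, median -0.18). Its 2 probes differed in sign, at -0.32 ± 0.18 and 0.15 ± 0.12.

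Light chains are shared between motors and with other complexes, and 4 of 6 were below 0, with a median of -0.038. Dynll2 is measured by 5 probes, all slightly above 0 at 0.0093 to 0.14, and its mean was 0.047 ± 0.077. Its close relative Dynll1 was at -0.052 ± 0.051. Dynlt1b was at -0.16 ± 0.10 with its 2 probes at -0.17 and -0.16, Dynlt3 at -0.071 ± 0.064 and Dynlrb1 at -0.023 ± 0.067. Dynlrb2, the roadblock chain whose promoter window is printed above, was at 0.011 ± 0.11 on 14 arrays. It ranged from -0.23 to 1.14 on the forward arrays (median 0.11) and from -0.55 to 0.14 in the dye swaps (median -0.30).

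Regulators that load dynein or tie it to cargo did not pass either: of 16 tested, 7 were above 0 and 9 below (median -0.016). An unadjusted p under 0.05 was found for 2 of them (12.5%, beside 7.02% of all genes). Ninl, a centrosomal dynein adaptor, was at 0.42 ± 0.19 and Bicdl1, an adaptor of the Bicaudal family, at 0.21 ± 0.10 (adjusted p = 0.695 and 0.702 in limma). Of 30 kinesin genes tested, those with symbols beginning with Kif or Klc, 15 lay on each side (median -0.003). Kif1a was at 0.45 ± 0.14 and Kif2a at 0.20 ± 0.07 (adjusted p = 0.457 and 0.508 in limma). Of 23 tubulins and tubulin cofactors, 6 were above 0 and 17 below (median -0.043). In this list 5 had an unadjusted p under 0.05, all below 0 (21.7%, where 3.08% of all genes lie below 0 at that p), among them Tuba8 at -0.28 ± 0.10 and the cofactor Tbcd at -0.18 ± 0.07 (adjusted p = 0.584 and 0.657 in limma). The list was written with earlier results of these data known, and no member passed for treatment. For the dye effect 1 of the 23 passed, beside 2.61% of all genes.

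Dynactin, the activator of cytoplasmic dynein, held the member with the clearest dependence on the dye. All 4 measured subunits were below 0 for treatment, with a median of -0.12, and none passed limma's test or had an unadjusted p under 0.05. Dctn6, a subunit of the pointed-end complex, had 1 probe. It was above 0 on all 8 forward arrays, from 0.0050 to 0.47 (median 0.19), and below 0 on all 7 dye swaps, from -1.11 to -0.13 (median -0.40). The orientations did not overlap, which held for no other member and for 1.44% of all genes. Its dye effect was 0.37 ± 0.07 (adjusted p = 0.0128 in limma), and 254 of 9720 genes (2.61%) passed for the dye effect, 1.92% above 0. Its treatment estimate was -0.14 ± 0.07 (adjusted p = 0.729 in limma), and -0.52, 0.021 and -0.099 in the 3 array sets. If the dye swaps had been deposited unturned, these values would change places, and Dctn6 in place of Dnaaf2 would be the member called for treatment, at 0.37. The dye effect was 0.59, 0.22 and 0.42 in these sets. In the RefSeq table Dctn6 overlaps Mboat4.

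Dctn2, the dynamitin subunit of the shoulder, was at -0.12 ± 0.07 for treatment and at 0.16 ± 0.07 for the dye effect, and neither passed (adjusted p = 0.754 and 0.216 in limma). As a gene it ranged from -0.18 to 0.53 on the forward arrays (median -0.014) and from -0.66 to -0.0020 in the dye swaps (median -0.18). Its 2 probes disagreed on the dye. Probe 12261 was above 0 on 7 of 8 arrays of the first orientation (-0.063 to 0.55) and below 0 on all 7 dye swaps (-0.94 to -0.098), with a dye effect of 0.35 ± 0.07 (adjusted p = 0.0173 over 19863 probes in limma; 2.74% of probes passed, 1.98% above 0). Probe 19616 had -0.034 ± 0.082. In the RefSeq table Dctn2 overlaps Kif5a and Mbd6.

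Dctn4, another pointed-end subunit, has 3 probes with estimates on both sides of 0. Probe 10860 was above 0 on 13 of 15 arrays, at 0.21 ± 0.06, and probe 13384 on 4 of 15, at -0.18 ± 0.08. Both had an unadjusted p under 0.05, which 6.87% of all probes had, and neither passed over all probes (adjusted p = 0.488 and 0.720 in limma). No other member had probes that differed in sign in this way. Probe 17695 was at -0.091 ± 0.071, and the mean of the 3 was -0.022 ± 0.054. Dctn3, a shoulder subunit, was at -0.12 ± 0.07 and above 0 on 4 of 15 arrays (-0.43 to 0.36).

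**Figure D4:**
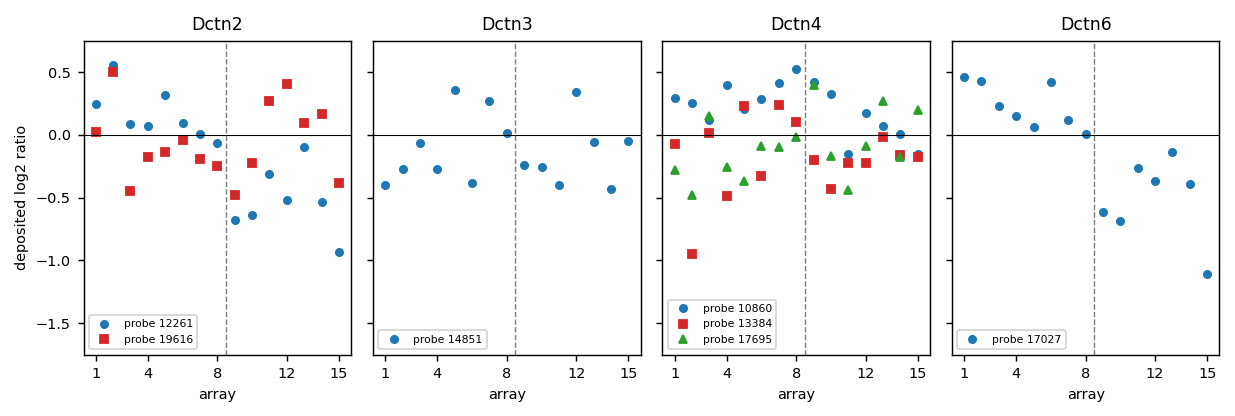
Deposited log2 ratio (y axis) of each probe of the 4 dynactin genes on each array (x axis; 1 to 8 treated in Cy5, 9 to 15 treated in Cy3, separated by a dashed line). Dctn6 and probe 12261 of Dctn2 lie mostly above 0 on the left and below 0 on the right, and the probes of Dctn4 lie apart from each other.

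IFT genes were split evenly for treatment, 6 above 0 and 6 below, with a median of 0.0; none passed limma's test or had an unadjusted p under 0.05. In the train complex IFT-A, which works in return transport, Ift43 was at 0.098 ± 0.068, Ift122 at 0.017 ± 0.16 and Ift140 at -0.0090 ± 0.072. In IFT-B, which works in outward transport, estimates ran from -0.18 for Ift57 to 0.16 for Ift74, and 5 of 9 were below 0. Ift172 was at 0.050 ± 0.089, Ift46 at 0.0020 ± 0.064, Ift27 at -0.035 ± 0.073 and Ift52 at -0.039 ± 0.12. Ift57 ranged from -1.31 to 0.41 on the forward arrays (median -0.25) and from -0.36 to 0.51 in the dye swaps (median -0.22). It was above 0 on only 3 of 15 arrays, with an estimate of -0.18 ± 0.11 (adjusted p = 0.764 in limma), and was 0.14 in arrays 7, 8 and 15. Ift74 had values on 8 arrays, 6 of them at dim spots, and an error of 0.44. Ift88, whose loss is known to abolish cilia, was at -0.0010 ± 0.31 with values between -3.43 and 2.88.

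For the dye effect, 3 of 12 IFT genes had an unadjusted p under 0.05 (25.0%, beside 19.5% of all genes) and none passed. Ift122 was from -0.54 to 1.40 on the forward arrays (median 0.86) and from -1.41 to 0.19 in the dye swaps (median -0.56), a dye effect of 0.56 ± 0.16 (adjusted p = 0.0727 in limma). One of its 2 probes had too few values to be tested, and 10 of 24 probe values were at dim spots. The other probe, 14719, had a dye effect of 0.40 ± 0.21 (adjusted p = 0.291 over all probes in limma). The dye effect of Ift122 was -0.15 in arrays 7, 8 and 15, 0.21 in the narrow set and 0.99 in the remaining arrays. Ift20 was from -0.67 to 1.56 (median 0.46) and from -0.76 to 0.14 (median -0.41) in the same order, at 0.39 ± 0.14 (adjusted p = 0.152 in limma). Leaving out array 7 raised the count called for the dye effect from 254 to 431 over all genes and from 1 to 3 among the members. Ift122 and Ift20 passed in that fit, at 0.60 (adjusted p = 0.0498) and 0.485 (adjusted p = 0.0428 in limma). Ift81 had the opposite sign, from -0.69 to 0.099 (median -0.27) and from -0.24 to 0.36 (median 0.073), at -0.21 ± 0.07 (adjusted p = 0.116 in limma).

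BBSome and tektin genes showed no call in limma, and none had an unadjusted p under 0.05. Bbs2, a subunit of the BBSome core, was at 0.19 ± 0.12, from -0.14 to 0.88 on the forward arrays (median 0.47) and from -0.57 to 1.18 in the dye swaps (median -0.098). It was at 0.092 without array 9 and at 0.070 without dim spots, and the array sets gave -0.15 in arrays 7, 8 and 15, 0.16 in the narrow set and 0.31 in the remaining arrays. Bbs4 was at 0.14 ± 0.09, Bbs5 at -0.043 ± 0.12 and Bbs9 at -0.056 ± 0.085. Among the tektins, Tekt3 had values on 9 arrays, 5 of them at dim spots. It was from -0.062 to 1.497 on 5 forward arrays (median 0.66) and from -1.43 to 0.86 on 4 dye swaps (median -0.40), with an estimate of 0.17 ± 0.27. It was at 0.069 without array 6 and 0.26 without array 4, at 0.76 in arrays 7, 8 and 15 and at -0.22 in the set of the remaining 8 arrays. Tekt1 was at 0.095 ± 0.13, Tekt2 at -0.088 ± 0.12 and Tekt4 at -0.12 ± 0.12. Tekt4 was below 0 on all 7 dye swaps (-0.40 to -0.042) and above 0 on 5 of 8 arrays of the other orientation.

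For the dye effect over all members, 1 of 49 passed, beside the 2.61% of all genes given above. At an unadjusted p under 0.05, 10 of 49 members were found (20.4%), where the share over all genes was 19.5%. These were Dctn2, Dctn6, Dnal4, Dynlrb2, Ift122 and Ift20 above 0 and Dnah11, Dnaic1, Dync2li1 and Ift81 below. The median dye effect was 0.007, with 26 members above 0, where the share over all genes was 49.2%. In the forward arrays alone, 0 of 49 members passed limma's test and 10 had an unadjusted p under 0.05 (13% of all genes did, 1274 of 9795). In the dye swaps alone, 0 passed and 9 had an unadjusted p under 0.05 (14.5% of all genes, 1413 of 9744). Dnaaf2 was at 0.37 ± 0.09 and 0.67 ± 0.11 in these fits (adjusted p = 0.249 and 0.224 in limma).

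**Figure D5:**
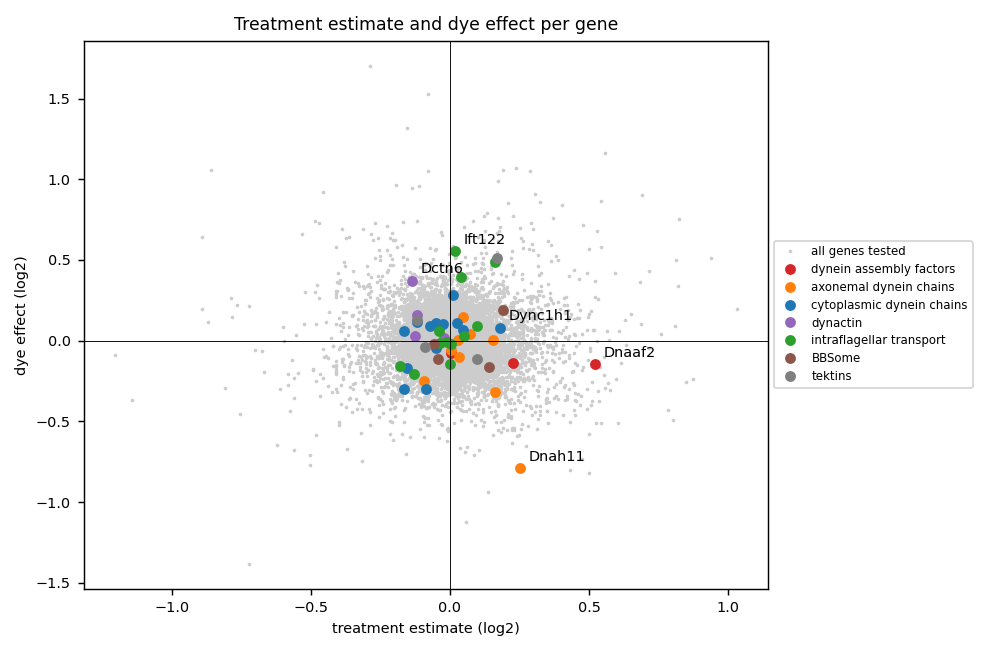
Treatment estimate (x axis, log2) against dye effect (y axis, log2) for the 49 members, coloured by family, over all 9720 genes tested in grey. Dnaaf2 lies at 0.52 on the x axis with a dye effect of -0.15, while Dctn6 at 0.37, Ift122 at 0.56 and Dnah11 at -0.79 lie away from 0 on the y axis.

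Genes of the basal body and transition zone, the gate at the foot of the cilium, were centred on 0 (17 tested, 8 above 0, median -0.002). Of them, 2 had an unadjusted p under 0.05 (11.8%, beside 7.02% of all genes). Cep83 and Cep89, which anchor the basal body, were at 0.20 ± 0.07 and 0.24 ± 0.09 (adjusted p = 0.622 and 0.647 in limma). Hedgehog genes, whose pathway runs through the primary cilium, had 7 of 11 above 0 (median 0.017) and 2 at that p (18.2%). The target Gli1 was at -0.27 ± 0.11 and the coreceptor Gas1 at 0.32 ± 0.14 (adjusted p = 0.656 and 0.679 in limma). Markers of multiciliated cells, which carry motile cilia, had 6 of 14 above 0 (median -0.044, 0 at an unadjusted p under 0.05), with Myb at -0.15 ± 0.07 and Cfap53 at 0.17 ± 0.14. Pluripotency markers had 8 of 12 above 0 (median 0.034), with Esrrb at 0.45 ± 0.17 and Pou5f1 at -0.39 ± 0.22. B cell markers had 3 of 5 above 0, with a median of 0.034 and estimates from -0.32 to 0.13. The 2 of smallest p, both above 0, were Ebf1 at 0.11 ± 0.07 and Blnk at 0.13 ± 0.09. T and NK cell markers had 3 of 7 (median -0.059; Gata3 -0.22 ± 0.12, Thy1 0.12 ± 0.09), and feeder fibroblast markers 9 of 15 (median 0.048; S100a4 -0.16 ± 0.05, Col5a1 0.19 ± 0.09). Thy1 was counted in both of these last lists. At an unadjusted p under 0.05, the pluripotency and fibroblast lists had 1 gene each (8.33% and 6.67%), and the B cell and T and NK cell lists had 0. No gene of these lists passed for treatment. For the dye effect 1 gene of the basal body list passed, beside 2.61% of all genes. Since ratios hold no level, whether the markers were expressed cannot be told. A change in the share of a cell type and a change of RNA per cell cannot be told apart in these bulk samples.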

How the data were processed

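The series holds 15 two-colour arrays of 1 group, treated against untreated RNA, with the dyes taken from the labels. The log2 ratio values were deposited by the authors. The scale was read from the values, and no source used here gives background correction, normalization or direction. The placeholders, 1999 values with an absolute log2 ratio above 10, sat at the log2 of 100000 plus or minus an array constant and were set missing. Dim values lie within 0.0015 of what 2 small whole numbers (at most 6) would give once divided, logged and shifted by that constant (10.3% of all values, 9.87% for the members' probes). Of the probes, 13891 had 1 symbol in the platform table, 5 had several and 6309 had none, and 13855 identifiers were matched to RefSeq (GRCm38.p6). Values of probes of the same gene were averaged per array.

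Genes and probes with at least 4 values per orientation were fitted with limma 3.58.1 in R 4.3.3 (lmFit and eBayes; intercept and dye orientation), two-sided, with Benjamini-Hochberg adjusted p under 0.05 over all genes or all probes as the threshold. The fit was tested on simulated data. Members, lists and tests were chosen with earlier results of these data known. Values are given per array (range and median) for members with an unadjusted p under 0.05 in either component and for the largest treatment estimate of each family. Probes are named where those of a gene disagree in sign at that p or lie closest or furthest apart, and 2 genes of smallest p per list. Alternatives covered normalization, filters, array weights, each orientation alone, single arrays left out and 3 array sets, the last chosen after seeing the data. The number of arrays limits the precision. One promoter window is not reported here.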

Additional observations from a re-analysis of the deposited data

Results flagged for a closer look

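Dctn6 and 1 probe of Dctn2 differed between the dye orientations by the test of the difference itself, with dye effects of 0.373 ± 0.070 for Dctn6 (adjusted p = 0.0128 in limma, above 0 on 8 of 8 forward arrays, below 0 on 7 of 7 dye swaps) and 0.347 ± 0.068 for probe 12261 of Dctn2 (adjusted p = 0.0173). Single arrays lay far from the rest of their orientation in 3 of 40 sets of values examined, where chance gives about 1 in 20. The sets did not cover all members. Far values outside them include -3.66 for Dync1i2 on array 8 and -2.44 for Dync2h1 on array 3. The latter value recurs on that array at a probe of Dync2li1, and whether it came from dim spots was not tested. Dnah3 was at 0.956 on array 15, with the next dye swap at 0.132. Dync1h1 was at 0.604 on array 12, with the next at 0.157. Dctn2 was at 0.526 on array 2, with the next forward array at 0.136.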

How the results depend on the processing

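Under 16 settings and the omission of each of 15 arrays in turn, the count of members called for treatment stayed at 1, except that it was 0 in the forward arrays alone (treated in Cy5), in the dye swaps alone (treated in Cy3), without arrays 7, 8 and 15, and without array 10 (range over single omissions 0 to 1). With the dye swaps turned the called member was Dctn6, not Dnaaf2. At an unadjusted p under 0.05 these 4 fits had 10 of 49, 9 of 49, 5 of 47 and 5 of 47 members, beside 13%, 14.5%, 7.9% and 6.34% of all genes. The count for the dye effect was 3 with array weights and without arrays 7, 8 and 15, 2 with the most measured probe, and 1 to 3 over single omissions (3 without array 7, 2 without array 2). Where probes of a gene had equally many values, the most measured setting took the lowest identifier, as with probe 601 of Dnaaf2 and probe 12261 of Dctn2. The median of the members stayed between -0.020 and 0.0072 over settings. Dnaaf2 was at -0.147 with the dye swaps turned, 0.372 in Cy5 alone, 0.667 in Cy3 alone and 0.539 without arrays 7, 8 and 15, and between 0.490 and 0.558 over single omissions; only without array 10 did it miss the threshold. Probe 601 was at -0.133 turned, 0.917 in Cy5 alone, 1.183 in Cy3 alone and 0.649 in the narrow set, and at 1.015 to 1.111 over single omissions. Probe 7404 was at -0.101 turned, 0.488 without dim spots, 0.426 and 0.627 in Cy5 and Cy3 alone, 0.577 without arrays 7, 8 and 15, and at 0.462 to 0.563 over single omissions, of which 11 ended its call (adjusted p from 0.0516 to 0.0938 in limma). Probe 5722 was at 0.190 in Cy3 alone and between -0.080 and 0.027 over single omissions. With the swaps turned, treatment estimates were -0.140 for Dnaaf1, 0.373 for Dctn6 and -0.789 for Dnah11, and dye effects -0.120 for Dctn2, -0.137 for Dctn6 and 0.251 for Dnah11, by construction. In Cy5 alone Dctn6 was at 0.236 and Dnah11 at -0.538, and in Cy3 alone Tekt3 was at -0.345. The array sets were added after seeing the data; the causes of the other shifts were not tested. All arrays form 1 group, so replicate numbers pair no groups. A replicate block of arrays n and n + 8 was fitted as an alternative; it had a correlation of -0.0086 over genes and left Dnaaf2 at 0.52 with 1 member called. The count of all genes called moved from 4 to 8 with placeholders left in, 8 with the most measured probe, 11 with array weights, 254 with the swaps turned and 0 in each orientation alone and without arrays 7, 8 and 15. For the dye effect it moved from 254 to 685 with array weights, 571 without arrays 7, 8 and 15 and 4 with the swaps turned. Over single omissions the count for treatment was 0 to 7 (0 without array 10, 2 without array 11, 7 without array 6) and for the dye effect 99 to 431 (431 without array 7; 99 to 155 without array 3, 5, 6, 9, 10, 11, 12 or 14).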
